A study of Homo sapiens with 18 samples.

Results

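The genes described here are 10 of the 23411 gene symbols counted in the series, chosen by name for their place in cystine uptake and in the making, recycling and breakdown of glutathione: SLC7A11, SLC3A2, GCLC, GCLM, GSS, GSR, CHAC1, GGCT, OPLAH and GGT1. RNA was sequenced from 18 samples of ARPE-19, a human retinal pigment epithelium (RPE) cell line that arose spontaneously, with 3 samples in each of 6 groups. Control cells, labelled WT, had received a lentiviral Cas9 vector that carried no gRNA. NRF2 ΔC cells are 1 clone, C1, in which Cas9 was directed to exon 5 of NFE2L2, the gene of the transcription factor NRF2, and both edited alleles carry premature stop codons that remove the C-terminal end of the protein. Each line was left untreated (Milli-Q H2O), or received 1 mM NACET, the ethyl ester of N-acetylcysteine, or 0.2 mM H2O2. The sample labels give 22 h of culture, 1% serum and a treatment of 2 h. The series description gives 40 h, 10% serum and 8 h, as does the paper. Because the labels differ from both, the exposure time is uncertain. Because the edited line is a single clone, the edit and other differences of that clone cannot be told apart. The sources do not say that replicates were separate cultures, so p-values measure only the spread between these samples. Reads assigned to genes numbered 16673306 to 25951154 per library.

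Glutathione is the most abundant small thiol of animal cells, and cysteine is usually the scarcest of its building blocks. SLC7A11 (xCT) imports cystine in exchange for glutamate and works as a pair with SLC3A2, the heavy chain that brings it and several other amino acid carriers to the plasma membrane. Glutamate and cysteine are joined by glutamate-cysteine ligase, made of the catalytic subunit GCLC and the modifier subunit GCLM, and GSS then adds glycine. GSR reduces oxidised glutathione with NADPH. Outside the cell GGT1 splits glutathione, inside the cell CHAC1 cleaves it, GGCT releases pyroglutamate from gamma-glutamyl amino acids, and OPLAH converts pyroglutamate back to glutamate. SLC7A11, GCLC, GCLM and GSR are textbook targets of NRF2, which binds antioxidant response elements (AREs), while CHAC1, SLC7A11 and SLC3A2 are also known targets of ATF4, the effector of the integrated stress response. The RPE is a tissue with a high oxidant load, in which this pathway is a main defence.

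The sequences around the starts of GCLM, GCLC and CHAC1 are shown. The first 2 encode the subunits of 1 enzyme, and the third had the largest fold change with H2O2 among the members. Each window runs from 250 bases before to 50 bases after the gene start on the gene's strand, 5′ to 3′ (RefSeq, build GRCh38.p14). GCLM lies at chr1:93909381-93909680 on the minus strand, GCLC at chr6:53545052-53545351 on the minus strand, and CHAC1 at chr15:40953221-40953520 on the plus strand. Capitals mark matches, on either strand, to the ARE core TGACNNNGC or to the core of the C/EBP-ATF composite element TGATGNAA.
GCLM: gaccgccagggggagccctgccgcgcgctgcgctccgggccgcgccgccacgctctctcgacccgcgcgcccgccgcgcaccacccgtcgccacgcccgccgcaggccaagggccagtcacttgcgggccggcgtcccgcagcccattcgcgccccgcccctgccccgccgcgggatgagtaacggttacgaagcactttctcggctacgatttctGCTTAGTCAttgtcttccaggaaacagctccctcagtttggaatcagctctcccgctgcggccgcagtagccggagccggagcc
GCLC: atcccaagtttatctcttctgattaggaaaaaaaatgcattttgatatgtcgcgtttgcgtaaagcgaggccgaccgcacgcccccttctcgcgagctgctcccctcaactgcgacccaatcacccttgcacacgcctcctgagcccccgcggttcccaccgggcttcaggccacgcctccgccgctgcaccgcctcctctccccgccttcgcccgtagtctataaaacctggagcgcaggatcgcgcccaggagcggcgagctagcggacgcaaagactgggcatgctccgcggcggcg
CHAC1: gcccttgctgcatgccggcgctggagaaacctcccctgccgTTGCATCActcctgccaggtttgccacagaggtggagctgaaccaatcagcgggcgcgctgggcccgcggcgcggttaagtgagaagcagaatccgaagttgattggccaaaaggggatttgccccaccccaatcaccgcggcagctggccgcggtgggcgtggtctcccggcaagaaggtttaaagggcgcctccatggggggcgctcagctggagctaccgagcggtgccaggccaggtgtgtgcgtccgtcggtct

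The GCLM window held 1 ARE core, GCTTAGTCA, read on the opposite strand, at bases -34 to -26 counted from the gene start as 0. The CHAC1 window held 1 C/EBP-ATF core, TTGCATCA, also on the opposite strand, at bases -209 to -202, and no ARE core, and the GCLC window matched neither motif. Among 35116 windows of 27305 genes, 13.3% held the ARE core and 3.62% the C/EBP-ATF core, and in 0 windows did the motifs overlap each other. A window was found for 5 of the 10 genes, and SLC3A2 and GGT1 had more than 1. In SLC3A2, the window at chr11:62881449-62881748 held both motifs, TGACTCAGC at bases -37 to -29 and TTACATCA on the opposite strand at bases 37 to 44, and the others held none. In GGT1, 1 of 2 windows held an ARE core, GCTGGGTCA on the opposite strand, at bases -29 to -21. A match describes letters only and does not by itself show a binding site. A window of 300 bases cannot show sites outside it. Whether the matches bear on the measured levels was not tested. SLC7A11, GSS, GGCT, GSR and OPLAH are named only.

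The line and the edit were checked before the comparisons, on CPM, the reads of a gene relative to its library's total, with TMM scaling across all 18 libraries. NFE2L2 transcripts were present at 124 ± 2.44 CPM in untreated control cells and 126 ± 1.89 CPM in untreated NRF2 ΔC cells (mean ± SD, n = 3), a log2 fold change of 0.02 (SE 0.0918, adjusted p = 0.963), and counts over the whole gene do not show the edit. Control cells held 106 ± 2.42 CPM after NACET and 134 ± 4.96 CPM after H2O2, and the edited line 111 ± 9.06 and 141 ± 14.2 CPM. The NRF2 inhibitor KEAP1 and the ARE repressor BACH1 passed the call limits in none of the comparisons. Of 12 RPE markers, KRT8, KRT18, OTX2 and MITF were present in every library, whereas RPE65, TTR, TYR, DCT and RLBP1 were at or near 0. BEST1, PMEL and TYRP1 were low, with medians of 0.491, 2.06 and 3.76 CPM. KRT8 and KRT18, with medians of 545 and 405 CPM, weighed most in the sum of the 12. The sum was 960 to 1425 CPM over all libraries. That sum was 1344 to 1394 CPM in untreated, 1117 to 1269 in NACET-treated and 960 to 1034 in H2O2-treated control libraries, and 1303 to 1425, 1119 to 1328 and 969 to 1074 CPM in NRF2 ΔC libraries, and its part in the treatment results was not tested. Of 8 markers of other cells, PTPRC and PECAM1 were at or near 0, CD68 was 78.5 to 145 CPM, and TUBB3 was 48.0 to 103 CPM in control libraries and 106 to 228 CPM in NRF2 ΔC libraries. The sum of the 8 was 203 to 225 CPM in untreated, 162 to 210 in NACET-treated and 127 to 180 in H2O2-treated control libraries, and 249 to 322, 255 to 287 and 216 to 229 CPM in NRF2 ΔC libraries, and its part in the line and treatment results was not tested. In bulk RNA, fewer cells of a kind and less RNA per cell cannot be told apart.

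A gene was called where edgeR's quasi-likelihood test gave a Benjamini-Hochberg adjusted p under 0.05 over all genes tested and its log2 fold change was 0.6 or more in size. In control cells, NACET raised 4 of 9 tested members (SLC7A11, GCLM, GSR and GCLC), beside 2.75% of all genes called, and H2O2 raised 5 of 9 (SLC7A11, GCLM, GSR, SLC3A2 and CHAC1), beside 6.33%. In NRF2 ΔC cells, NACET gave 0 of 9 calls, beside 1.39%. There 5 members had an unadjusted p under 0.05, beside 2516 of 13542 genes, and DESeq2 called 2, beside 570 genes in all. H2O2 raised 3 of 9 in NRF2 ΔC cells (CHAC1, SLC7A11 and SLC3A2), beside 9.81%. No member was called lower with either treatment. Over the members, the median log2 fold change in control cells was 0.71 for NACET and 0.75 for H2O2, and that in the edited line 0.27 and 0.29, while the medians over all genes were -0.01 or nearer to 0. Both treatments were compared with the same untreated samples of each line. GGT1 had 2 to 21 counts per library and passed the filter on low counts only in comparisons that include H2O2-treated NRF2 ΔC cells, where it was highest. It is therefore described by its levels and left out of the counts of members. Its fitted values enter only the list of sign changes at the end, where they are not interpreted.

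Of the members, SLC7A11 had the largest response to NACET in control cells. SLC7A11 (GRCh37, chromosome 4, 139085251 to 139163503, minus strand) measured 24.6, 36.5 and 30.9 CPM in the 3 untreated control samples, 188, 221 and 172 CPM with NACET, and 147, 253 and 163 CPM with H2O2. The treated control samples were all far above the untreated ones and overlapped each other. The gene measured 11.5, 18.5 and 14.3 CPM in untreated NRF2 ΔC cells, 21.9, 37.6 and 17.2 CPM with NACET, and 91.3, 108 and 62.4 CPM with H2O2. There, NACET samples overlapped the untreated ones and H2O2 samples stood clear of both. Control cells gave a log2 fold change of 2.67 for NACET (SE 0.168, adjusted p = 0.00136) and 2.62 for H2O2 (SE 0.227, adjusted p = 0.00108), which is 6.36-fold and 6.14-fold. The edited line gave 0.77 with NACET (SE 0.295, adjusted p = 0.217) and 2.53 with H2O2 (SE 0.244, adjusted p = 0.00155). Once replicate numbers were blocked, the NACET value in NRF2 ΔC cells was 0.74 (adjusted p = 0.000206), within pairs of 0.26 to 1.03, against 2.48 to 2.93 in control cells.

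SLC3A2, the heavy chain (GRCh37, chromosome 11, 62623476 to 62656352, plus strand), followed another order of groups. It measured 216, 216 and 234 CPM in untreated control cells, 282, 317 and 367 CPM with NACET, and 365, 434 and 412 CPM with H2O2. Its levels in the edited line were 165, 228 and 207 CPM untreated, 258, 393 and 344 CPM with NACET, and 398, 795 and 575 CPM with H2O2. Both treatments lay above untreated samples in each line, and the 4 treated groups overlapped their neighbours in order. With H2O2 the gene rose in control cells by a log2 fold change of 0.87 (SE 0.0970, adjusted p = 0.00260) and in NRF2 ΔC cells by 1.54 (SE 0.247, adjusted p = 0.00851). With NACET the values were 0.55 (SE 0.115, adjusted p = 0.0446), below the fold limit, in control cells and 0.71 (SE 0.181, adjusted p = 0.0964) in NRF2 ΔC cells, the latter called with the replicate block at 0.70 (adjusted p = 5.69e-07).

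Among the genes of synthesis, the modifier subunit moved most. GCLM (GRCh37, chromosome 1, 94350755 to 94375012, minus strand) measured 15.1, 24.0 and 19.0 CPM in untreated control cells, 73.6, 89.4 and 73.1 CPM with NACET, and 50.2, 79.4 and 43.0 CPM with H2O2. Untreated NRF2 ΔC cells held 11.0, 10.6 and 12.0 CPM, against 17.8, 16.9 and 20.5 CPM with NACET and 17.9, 17.5 and 13.7 CPM with H2O2. Treated NRF2 ΔC cells thus reached the level of untreated control cells, with overlapping values, and untreated NRF2 ΔC cells were the lowest group. On the log2 scale GCLM rose by 2.04 in NACET-treated (SE 0.178, adjusted p = 0.00373) and by 1.58 in H2O2-treated control cells (SE 0.247, adjusted p = 0.00780). For the edited line the log2 fold changes were 0.70 (SE 0.135, adjusted p = 0.0522) and 0.52 (SE 0.164, adjusted p = 0.0744), of which the first was called with the replicate block at 0.69 (adjusted p = 4.17e-05).

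GCLC, the catalytic subunit (GRCh37, chromosome 6, 53362139 to 53481768, minus strand), was also higher in treated control cells, with smaller steps. It measured 32.5, 35.8 and 30.0 CPM in untreated control cells, 54.5, 51.9 and 52.7 CPM with NACET, and 47.3, 51.2 and 41.9 CPM with H2O2. All 9 NRF2 ΔC values lay between 26.9 and 34.5 CPM. The log2 fold change in control cells was 0.71 with NACET (SE 0.101, adjusted p = 0.0169), a call that was lost without any 1 of 4 libraries, untreated control replicate 1 or 2 or NACET-treated control replicate 1 or 2 (adjusted p up to 0.111), and 0.52 with H2O2 (SE 0.111, adjusted p = 0.0221), below the fold limit. The edited line gave 0.26 (SE 0.102, adjusted p = 0.216) and 0.17 (SE 0.137, adjusted p = 0.425). GSS, which completes the tripeptide (GRCh37, chromosome 20, 33516235 to 33543830, minus strand), lay between 42.7 and 68.1 CPM in all 18 libraries, and none of its log2 fold changes was called, at 0.02 and -0.02 for NACET and H2O2 in control cells and 0.03 and 0.22 in the edited line.

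GSR, the reductase that recycles glutathione, rose with both agents in control cells and was called with neither in NRF2 ΔC cells. It measured 88.2, 92.1 and 100.1 CPM in untreated control cells, 172, 195 and 217 CPM with NACET, and 139.7, 183 and 149 CPM with H2O2. The 9 NRF2 ΔC values ran from 74.1 to 112 CPM and overlapped those of untreated control cells. The log2 fold change was 1.07 for NACET (SE 0.10999, adjusted p = 0.00555) and 0.75 for H2O2 (SE 0.114, adjusted p = 0.00693) in control cells, while the edited line gave 0.22 (SE 0.132, adjusted p = 0.423) and 0.07 (SE 0.133, adjusted p = 0.762). Without untreated control replicate 2 the adjusted p of the NACET rise was 0.0502.

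CHAC1, which degrades cytosolic glutathione (GRCh37, chromosome 15, 41245160 to 41248710, plus strand), was the member with the widest range. It measured 1.16, 1.74 and 0.820 CPM in untreated control cells, from 18 to 36 counts, 3.28, 7.67 and 2.0995 CPM with NACET, and 13.9, 19.5 and 14.4 CPM with H2O2. The edited line held 0.731, 2.68 and 1.01 CPM untreated, from 15 to 69 counts, 3.68, 4.29 and 3.01 CPM with NACET, and 37.9, 67.4 and 41.9 CPM with H2O2. All H2O2-treated samples stood above all others, and those of NRF2 ΔC cells above those of control cells. H2O2 raised the gene by a log2 fold change of 3.69 in control cells (12.9-fold, SE 0.262, adjusted p = 0.000836) and by 4.99 in NRF2 ΔC cells (31.8-fold, SE 0.445, adjusted p = 0.00123). With NACET the values were 1.81 (SE 0.509, adjusted p = 0.0958) and 1.26 (SE 0.439, adjusted p = 0.179), and with the replicate block both were called, at 1.77 (adjusted p = 2.08e-15) and 1.33 (adjusted p = 0.000665).

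The other genes of breakdown did not pass the limits with either treatment. GGCT (GRCh37, chromosome 7, 30536237 to 30544457, minus strand) was 29.5 ± 6.20, 41.0 ± 5.60 and 41.4 ± 4.58 CPM in untreated, NACET-treated and H2O2-treated control cells, and 36.3 ± 8.78, 44.4 ± 9.77 and 45.0 ± 6.23 CPM in NRF2 ΔC cells (SD, n = 3). Its 4 log2 fold changes were 0.27 to 0.49, the largest with an adjusted p of 0.0809. OPLAH measured 9.91, 5.496 and 7.93 CPM in untreated control cells, 5.42, 5.77 and 5.56 CPM with NACET, and 6.42, 5.46 and 7.11 CPM with H2O2. The edited line held 1.90, 1.32 and 1.24 CPM untreated, 1.42, 0.715 and 1.14 CPM with NACET, and 1.59, 1.23 and 2.30 CPM with H2O2, so the lines did not overlap and the treatments within a line did. OPLAH gave log2 fold changes of -0.47 (SE 0.213, adjusted p = 0.261) with NACET and -0.30 (SE 0.223, adjusted p = 0.403) with H2O2 in control cells, and of -0.44 and 0.19 in NRF2 ΔC cells. With the replicate block the NACET value in control cells was -0.46 (adjusted p = 0.00149), short of the fold limit. GGT1 (GRCh37, chromosome 22, 24990778 to 25024972, plus strand) averaged 0.124, 0.322 and 0.440 CPM in untreated, NACET-treated and H2O2-treated control cells and 0.252, 0.467 and 0.695 CPM in NRF2 ΔC cells.

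**Figure D1:**
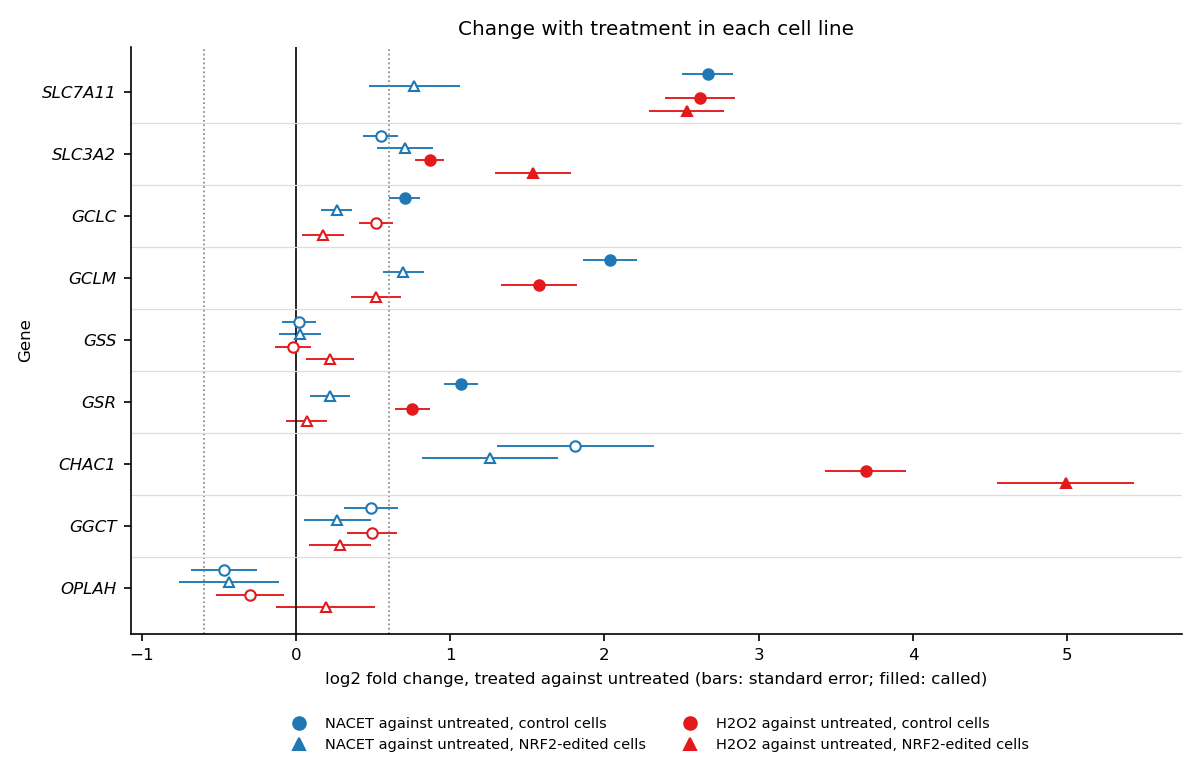
Log2 fold change of each member but GGT1 with NACET or H2O2 against untreated samples of the same line, with bars of 1 SE, where filled markers were called and dotted lines stand at 0.6 in either direction. SLC7A11 with NACET stood at 2.67 in control cells and 0.77 in NRF2 ΔC cells, and CHAC1 with H2O2 at 3.69 and 4.99.

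Blocking on replicate number added member calls with NACET in both lines. The block leaves few degrees of freedom for each gene, and edgeR's quasi-likelihood test pools the spread of genes. Blocked adjusted p, as low as 2.6e-137 for SLC7A11 with NACET in control cells, thus rest largely on pooled spread. They do not measure the spread of that gene's own samples alone. NACET then called 5 of 9 members in control cells, beside 7.49% of all genes, and 4 of 9 in NRF2 ΔC cells, beside 8.82%. H2O2 called 5 of 9 in control cells, beside 10.2%, and 3 of 9 in NRF2 ΔC cells, beside 18.7%, as without the block. The members added were CHAC1 in control cells and SLC7A11, SLC3A2, GCLM and CHAC1 in NRF2 ΔC cells, all of them higher than in untreated samples.

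Between the lines, SLC7A11 and OPLAH were lower in NRF2 ΔC cells under all 3 conditions. In untreated cells 2 of 9 members were called, both lower, beside 3.85% of all genes. SLC7A11 differed by a log2 fold change of -1.05 (SE 0.204, adjusted p = 0.0231), a call lost without untreated control replicate 2 or 3 or untreated NRF2 ΔC replicate 3 (adjusted p up to 0.113), and OPLAH by -2.39 (SE 0.282, adjusted p = 0.00204). GCLM gave -0.79 (SE 0.181, adjusted p = 0.0507), with no overlap of the samples and a call under 7 of 12 alternatives, and GCLC -0.25 (SE 0.114, adjusted p = 0.399). In NACET-treated cells 5 of 9 members were called, all lower in NRF2 ΔC cells, beside 4.76%: SLC7A11 at -2.95 (SE 0.279), OPLAH at -2.35 (SE 0.253), GCLM at -2.13 (SE 0.129), GSR at -0.99 (SE 0.120) and GCLC at -0.69 (SE 0.0911), with adjusted p of 0.00399 or less. Most genes called between the lines were lower in NRF2 ΔC cells, 428 of 528 untreated and 526 of 648 with NACET.

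With H2O2 the lines differed in 5 of 9 members, 4 lower and 1 higher in NRF2 ΔC cells, beside 5.62% of all genes. The lower ones were OPLAH at -1.89 (SE 0.266, adjusted p = 0.00347), GCLM at -1.83 (SE 0.229, adjusted p = 0.00185), SLC7A11 at -1.13 (SE 0.240, adjusted p = 0.0259) and GSR at -0.81 (SE 0.127, adjusted p = 0.00562). The SLC7A11 call was lost without H2O2-treated control replicate 2 or H2O2-treated NRF2 ΔC replicate 3 (adjusted p up to 0.0927). CHAC1 was higher by 1.60 (SE 0.235, adjusted p = 0.00409), a 3.03-fold difference. SLC3A2 gave 0.53 (SE 0.222, adjusted p = 0.191) and GCLC -0.58 (SE 0.132, adjusted p = 0.0333), just below the fold limit. GSS and GGCT were called in none of the line comparisons, with log2 fold changes between -0.05 and 0.30.

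**Figure D2:**
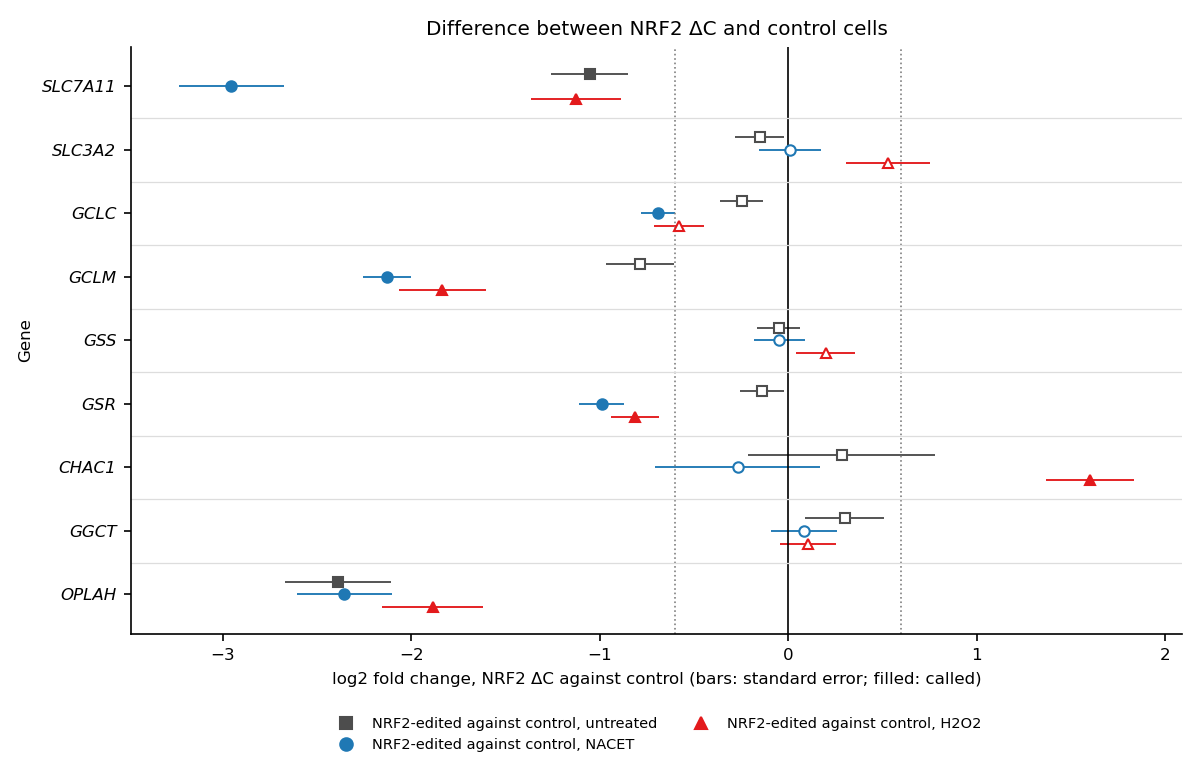
Line difference of each member but GGT1, as the log2 fold change of NRF2 ΔC over control cells, untreated, with NACET and with H2O2, with bars of 1 SE, where filled markers were called and dotted lines stand at 0.6 in either direction. OPLAH lay between -2.39 and -1.89 under all conditions, whereas CHAC1 stood above 0 with H2O2, at 1.60.

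Whether a response differed between the lines was tested by the interaction of treatment and line, as the control response minus that of NRF2 ΔC cells. Without a block, 0 of 9 members passed for NACET, beside 0.0643% of all genes, and 0 of 9 for H2O2, beside 0.0214%. For NACET 4 members had an unadjusted p under 0.05, beside 228 of 14002 genes, and 3 passed by DESeq2, beside 27 genes in all. For H2O2 4 members had an unadjusted p under 0.05, beside 806 of 13987 genes, and 0 passed by DESeq2, beside 75 genes in all. With replicates blocked within each line, 3 of 9 passed for NACET, beside 0.900%, and 4 of 9 for H2O2, beside 6.91%. For NACET the log2 interaction of SLC7A11 was 1.90 (SE 0.370, adjusted p = 0.186) without and 1.93 (adjusted p = 4.13e-06) with the block. GCLM gave 1.34 (SE 0.224, adjusted p = 0.0913) and 1.36 (adjusted p = 7.97e-06), and GSR 0.85 (SE 0.169, adjusted p = 0.210) and 0.84 (adjusted p = 1.81e-05). GCLC gave 0.44 in both, with an adjusted p of 0.0553 under the block. The direction of these was a larger rise in control cells.

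For H2O2 the interactions ran in both directions. GCLM gave 1.04 without (SE 0.317, adjusted p = 0.486) and 1.02 with the block (adjusted p = 0.00144), and GSR 0.67 (SE 0.172, adjusted p = 0.349) and 0.66 (adjusted p = 0.00231), with the larger rise in control cells. SLC3A2 gave -0.69 (SE 0.287, adjusted p = 0.813) and -0.65 (adjusted p = 0.00389), and CHAC1 -1.31 (SE 0.572, adjusted p = 0.848) and -1.36 (adjusted p = 0.00691), with the larger rise in NRF2 ΔC cells. For SLC7A11 the value was 0.07 (SE 0.356, adjusted p = 0.974), and 0.06 with the block (adjusted p = 0.868).

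**Figure D3:**
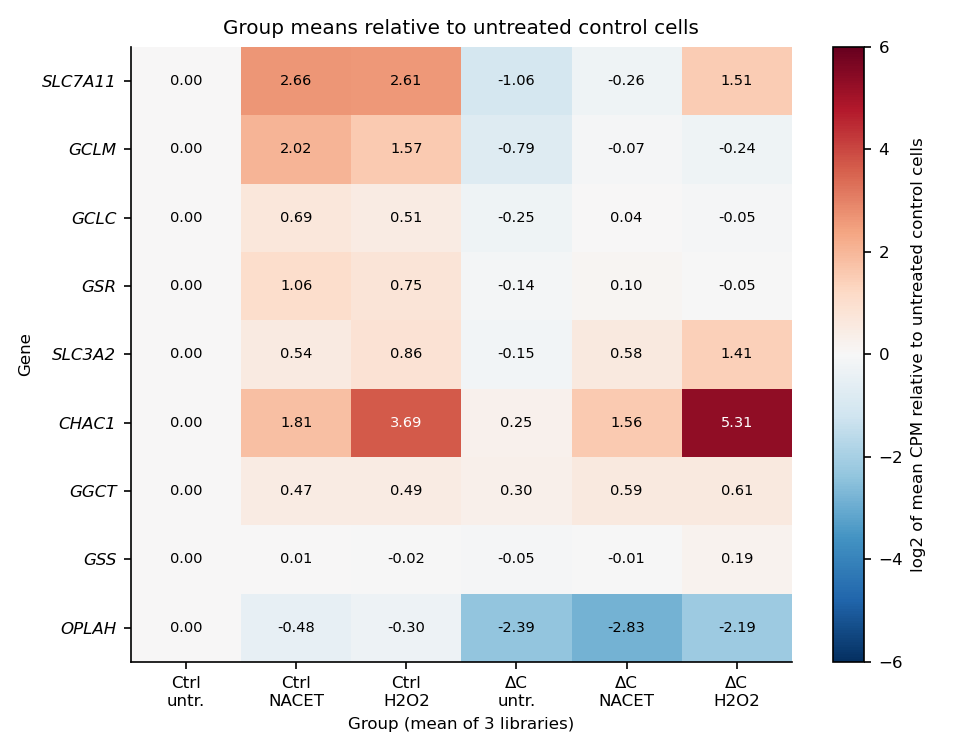
Mean CPM of 9 members in the 6 groups as the log2 difference from untreated control cells, shown by colour and by number. The rows of SLC7A11, GCLM, GCLC and GSR were highest in treated control cells, and those of CHAC1 and SLC3A2 in H2O2-treated NRF2 ΔC cells.

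Count ratios within a library, which do not depend on scaling between libraries, set the paired gene products side by side. The mean log2 ratio of GCLM to GCLC counts in control cells was -0.78 ± 0.287 untreated, 0.56 ± 0.191 with NACET and 0.25 ± 0.330 with H2O2 (SD, n = 3). The edited line gave -1.30 ± 0.106, -0.87 ± 0.157 and -0.96 ± 0.0725. Treated minus untreated, the difference was 1.35 and 0.43 for NACET and 1.04 and 0.34 for H2O2, in the control and the edited line respectively, with no overlap between treated and untreated samples in any of the 4 comparisons. The mean log2 ratio of SLC7A11 to SLC3A2 was -2.87 ± 0.290 untreated, -0.74 ± 0.315 after NACET and -1.14 ± 0.316 after H2O2 in the control line, and -3.78 ± 0.130, -3.76 ± 0.498 and -2.74 ± 0.554 in NRF2 ΔC cells. The differences in control cells were 2.14 for NACET and 1.73 for H2O2, and those in the edited line 1.04 for H2O2 and 0.02 for NACET, the last with values of -0.47 to 0.29 within replicate numbers. In the 7 comparisons without overlap the exact, 2-sided permutation p was 0.1, the smallest that 3 against 3 samples allow, so no ratio could pass 0.05 (0.114 after adjustment over 8 ratio tests).

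The agents were also compared with each other, since one supplies a thiol and the other is an oxidant. In control cells 1 of 9 members was called, beside 3.67% of all genes: CHAC1, lower with NACET by a log2 fold change of -1.88 (SE 0.407, adjusted p = 0.0391), a call lost without NACET-treated control replicate 1 or any 1 of the H2O2-treated control samples (adjusted p up to 0.146). SLC7A11 gave 0.06 (SE 0.203, adjusted p = 0.886), GCLM 0.47 (SE 0.214, adjusted p = 0.231) and GSR 0.33 (SE 0.128, adjusted p = 0.170). In NRF2 ΔC cells 2 of 9 were called, beside 8.31%, both lower with NACET: CHAC1 by -3.72 (SE 0.270, adjusted p = 0.00196) and SLC7A11 by -1.74 (SE 0.312, adjusted p = 0.0156). The SLC7A11 call was lost without H2O2-treated NRF2 ΔC replicate 2 (adjusted p = 0.0734). With the replicate block 4 of 9 were called, beside 15.5%, adding SLC3A2 at -0.77 (adjusted p = 1.24e-08) and OPLAH at -0.62 (adjusted p = 0.0474). OPLAH had 13 to 34 counts with NACET and 24 to 54 with H2O2 there, and the samples overlapped. Without the block its adjusted p was 0.313.

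ATF4, itself a regulator of CHAC1 and SLC7A11, was measured at 202 ± 27.4 CPM in untreated control cells, 313 ± 39.1 with NACET and 436 ± 39.7 with H2O2, and at 216 ± 30.2, 384 ± 60.9 and 698 ± 172 CPM in NRF2 ΔC cells (SD, n = 3). On the log2 scale its transcript rose by 0.65 in NACET-treated (adjusted p = 0.0434, and up to 0.185 with 1 library left out) and 1.12 in H2O2-treated control cells (adjusted p = 0.00259), and by 1.67 in the edited line given H2O2 (adjusted p = 0.00386). With NACET in NRF2 ΔC cells it gave 0.81 (adjusted p = 0.0522), called with the replicate block at the same value (adjusted p = 1.25e-07) and under 6 of 12 alternatives in all. Between the lines with H2O2 it gave 0.66 (adjusted p = 0.0722), called under 4 of 12 alternatives. NACET against H2O2 gave -0.84 in NRF2 ΔC cells (adjusted p = 0.0436, and up to 0.157 with 1 library left out). ATF4 activity depends largely on translation, which these counts do not measure.

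Another 28 genes of cystine and glutathione handling were examined: light chains that pair with SLC3A2, other carriers of cysteine, cystine or glutamate, other enzymes of breakdown, glutathione transporters, and genes of precursor supply and protein glutathionylation. With NACET in control cells 1 of 20 tested was called, beside 2.75% of all genes, the neutral amino acid carrier SLC1A5 at 0.64 (SE 0.140, adjusted p = 0.0487), a call lost without any 1 of the 6 libraries. CHAC2, a paralogue of CHAC1, gave 0.92 there (SE 0.221, adjusted p = 0.0661), with no overlap of the samples. The replicate block called both and SLC1A1 (0.68), 3 in all, beside 7.49%, and DESeq2 called the same 3 genes, beside 578 of all genes. With H2O2 in control cells 4 of 20 were called, beside 6.33%, and 6 with the block, beside 10.2%, which added CHAC2 at 0.64 and the light chain SLC7A8 at -0.65. The serine and cysteine carrier SLC1A4 rose by 1.47 (SE 0.188) and SLC1A5 by 0.98 (SE 0.136), while the glutamate and cysteine carrier SLC1A1 gave -1.12 (SE 0.213) and the glutaredoxin GLRX -0.60 (SE 0.150). With NACET in NRF2 ΔC cells 0 of 19 were called, beside 1.39%. There 7 had an unadjusted p under 0.05, beside 2516 of 13542 genes, and DESeq2 called 2, beside 570 of all genes. The block called 4 there, beside 8.82%, SLC1A4 at 0.88, SLC1A5 at 0.79, CHAC2 at 0.62 and GLRX at -0.74. With H2O2 in NRF2 ΔC cells 6 of 20 were called, beside 9.81%, SLC1A4 at 1.89 (SE 0.192), the large neutral amino acid carrier SLC7A5 at 1.35 (SE 0.164) and SLC1A5 at 1.20 (SE 0.262), and, lower, SLC1A1 at -1.43 (SE 0.298), GLRX at -1.06 (SE 0.274) and the mitochondrial glutathione carrier SLC25A40 at -0.63 (SE 0.173). The block called 8 there, beside 18.7%, adding the light chains SLC7A7 at 1.24 and SLC7A8 at -0.83. SLC7A7 had 9 to 11 counts in untreated and 15 to 31 in H2O2-treated NRF2 ΔC libraries. Within this line it passed the filter on low counts only with the H2O2 samples, so its call is not interpreted. The median over the list was between 0.02 and 0.11 in these 4 comparisons. The other enzymes of breakdown on the list gave no call in edgeR's fits without a block.

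Between the lines, the list gave 1 call untreated, beside 3.85%, SLC7A5 at -0.86 (SE 0.131), 3 with NACET, beside 4.76%, GLRX at -0.99 (SE 0.183), SLC7A8, another light chain, at -0.87 (SE 0.130) and SLC7A5 at -0.80 (SE 0.149), and 1 with H2O2, beside 5.62%, SLC7A8 at -0.86 (SE 0.168), all lower in NRF2 ΔC cells. NACET against H2O2 gave 3 calls in control cells, beside 3.67%, and 4 with the block, beside 7.50%. The 3 were SLC1A1 at 1.81 (SE 0.189), SLC1A4 at -0.89 (SE 0.207) and SLC7A5 at -0.77 (SE 0.160). It gave 4 in NRF2 ΔC cells, beside 8.31%, and 5 with the block, beside 15.5%. The block added SLC7A7, which passed the filter within this line only with the H2O2 samples and is not interpreted. The 4 were SLC1A1 at 1.99 (SE 0.275), SLC25A40 at 0.92 (SE 0.155), SLC7A5 at -1.47 (SE 0.167) and SLC1A4 at -1.001 (SE 0.159). Of the 23 calls on this list, 7 were kept without each library in turn: SLC1A4 with H2O2 in both lines, SLC1A5 with H2O2 in control cells, SLC7A5 with H2O2 in NRF2 ΔC cells, and, for NACET against H2O2, SLC1A1 in both lines and SLC7A5 in NRF2 ΔC cells. The other 16 were lost without at least 1 library, with an adjusted p of up to 0.216. The interactions gave 0 of 20 for NACET, with 0 at an unadjusted p under 0.05, beside 228 of 14002 genes. For H2O2 they gave 0 of 20, with 2 at an unadjusted p under 0.05, beside 806 of 13987 genes. With replicates blocked within each line 2 passed for H2O2, beside 6.91%, SLC7A5 at -0.79 and SLC1A4 at -0.46. DESeq2 gave 0 in both.

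Finally, the genes whose levels followed SLC7A11, GCLM and CHAC1 most closely over the 18 libraries were taken from 14153 genes by Pearson's r of log2 CPM, as a description, since the libraries share groups and replicate numbers. Nearest to SLC7A11 were the prion protein gene PRNP (0.951), the haem oxygenase HMOX1 (0.941) and the malic enzyme ME1 (0.921). HMOX1 averaged 57.7, 273 and 401 CPM in untreated, NACET-treated and H2O2-treated control cells and 46.2, 66.1 and 182 CPM in NRF2 ΔC cells. Nearest to GCLM were GCLC (0.981), the thioredoxin reductase TXNRD1 (0.973) and TRIM16 (0.965), and TXNRD1 averaged 1008, 3048 and 2083 CPM in control cells and 602, 707 and 655 CPM in NRF2 ΔC cells in the same order. Nearest to CHAC1 were FLAD1 (0.977), the methionyl-tRNA synthetase MARS (0.973) and the cystathionine gamma-lyase CTH (0.97). CTH, which makes cysteine by transsulfuration, averaged 3.66, 7.22 and 43.4 CPM in control cells and 2.65, 8.07 and 79.1 CPM in NRF2 ΔC cells.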

How the data were processed

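RNA of 18 ARPE-19 samples was sequenced single-end on a NextSeq instrument. The authors deposited gene counts, made with TopHat 2.1.0 on hg19 and HTSeq-count 0.11.2 without regard to strand, with rRNA genes removed and the gene annotation not given in the sources used here. Of 23411 symbols, 4060 had no count. Because strand was ignored, reads of overlapping and antisense genes cannot be told apart.

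Samples were grouped by the labels' genotype and treatment. Pairs of groups were compared with edgeR 4.0.16 (R 4.3.3) after filterByExpr and TMM, by quasi-likelihood, with p-values adjusted over all genes tested (Benjamini-Hochberg); a call needed an adjusted p under 0.05 and a change of 0.6 or more on the log2 scale (the adjusted p alone for interactions). SE was the log2 fold change divided by the square root of F. CPM on the log scale used a prior count of 0.5. The tests without a block recovered planted changes in independent counts simulated at 1 fixed dispersion. Shared replicate effects and the replicate block were not simulated. The members, lists and tests were chosen with earlier results of these data known. Named were the 10 members, 4 regulators, up to 3 called genes of the pathway list in each direction, and the 3 genes nearest to SLC7A11, GCLM and CHAC1 by Pearson's r. Alternatives were RLE and upper-quartile scaling, no filter, other fold limits, 1 fit of 18 samples, a replicate block, DESeq2 1.42.0 and leaving out each library.

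Replicate numbers come from the sample titles. Within a line, deviations from group means of same-numbered samples correlated at 0.2604 to 0.6653 (14153 genes), so the numbers were taken to pair samples there. Differently numbered samples were not compared, so this pairing is an assumption drawn from the same data. The blocked calls within a line rest on it. Between lines replicate 1 gave 0.4744 to 0.5674, replicate 3 0.1543 to 0.4605 and replicate 2 -0.314 to 0.01147. Because of replicate 2, the numbers were not taken to pair samples between lines, though replicates 1 and 3 did correlate. Replicates differed beyond counting noise (chi-square per degree of freedom of at least 10.4). Promoter windows came from RefSeq (GRCh38.p14) and gene positions from GENCODE on GRCh37. The depth, 16673306 to 25951154 reads on genes, leaves genes such as GGT1 with few counts.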

Additional observations from a re-analysis of the deposited data

Results flagged for a closer look

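For 7 results the responses of the lines differed by a test of the difference itself, the interaction with replicates blocked within each line, given as the log2 response of control cells minus that of NRF2 ΔC cells. For NACET they are SLC7A11 at 1.93 (adjusted p = 4.13e-06), GCLM at 1.36 (adjusted p = 7.97e-06) and GSR at 0.84 (adjusted p = 1.81e-05). For H2O2 they are GCLM at 1.02 (adjusted p = 0.00144), GSR at 0.66 (adjusted p = 0.00231), SLC3A2 at -0.65 (adjusted p = 0.00389) and CHAC1 at -1.36 (adjusted p = 0.00691). In that test 3 of 9 members passed for NACET, beside 0.900% of all genes, and 4 of 9 for H2O2, beside 6.91%. Without the block the shares of all genes were 0.0643% and 0.0214%. None of the 7 passed without the block in edgeR's quasi-likelihood test, where the adjusted p ran from 0.0913 for GCLM with NACET to 0.848 for CHAC1 with H2O2. The blocked p-values lean on spread pooled over genes and not on each gene's own samples alone. They also rest on the assumption that replicate numbers pair samples within a line. Both treatments share the untreated samples.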

How the results depend on the processing

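The direction of every called member was kept under every alternative run, and the numbers of members called stayed within 1.5 times the first value except as follows. A fold limit of 1 on the log2 scale left 3 calls with H2O2 in control cells, beside 282 genes in all, and 3 between the lines with NACET, beside 462. With NACET in NRF2 ΔC cells, where 0 were called, upper-quartile scaling gave 1, no filter 1, 1 fit of all 18 samples 2, DESeq2 2 and the replicate block 4. Calls over all genes rose there too, from 188 to 213, 266, 641, 570 and 1195 in the same order. The block gave 4 for NACET against H2O2 in NRF2 ΔC cells, beside 2092 genes in all. For the NACET interaction a replicate block gave 3, a block within each cell line 3 and DESeq2 3, beside 38, 126 and 27 genes in all. For the H2O2 interaction the blocks gave 1 and 4, beside 165 and 967. Between lines, where numbers were not taken to pair samples, a replicate block gave 3 calls untreated, 5 with NACET and 5 with H2O2. Beside these it called 843, 1018 and 1524 genes in all. Leaving out each library gave 2 to 5 calls with NACET in control cells (2 without untreated control replicate 2), 0 to 1 with NACET in NRF2 ΔC cells (1 without NACET-treated NRF2 ΔC replicate 1), 1 to 3 between untreated lines, 0 to 1 and 1 to 3 for NACET against H2O2 in control and NRF2 ΔC cells (0 and 1 without the libraries named beside those calls), and 0 to 1 for the NACET interaction (1 without untreated control replicate 2). Within the lines the replicate block changed no other member's call than those printed beside the results, GGT1 left aside. The cause of these changes was not tested. Fits with 1 library left out assume that a group of 2 varies like the other. Their calls over all genes are not given, so these ranges cannot be read as particular to the members.

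Of the other genes named, GLRX with H2O2 in control cells was also lost without a filter, in 1 fit of 18 samples and by DESeq2, SLC1A5 with NACET in control cells in 1 fit of 18 samples, and SLC25A40 with H2O2 in NRF2 ΔC cells with RLE and without a filter. Calls lost without 1 library each were SLC7A5 between untreated lines (untreated control replicate 2), SLC7A8 between the lines with NACET (NACET-treated NRF2 ΔC replicate 2) and SLC1A4 for NACET against H2O2 in NRF2 ΔC cells (H2O2-treated NRF2 ΔC replicate 2). ATF4 with NACET in control cells was lost without any library but untreated control replicate 3.

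A change of sign occurred in 63 values of 21 results, none of them called (lowest adjusted p 0.642), 0.556 or less in size at first. Apart from left-out libraries these were SLC3A2 between the lines with NACET, -0.0025 with a replicate block, GGCT for NACET against H2O2 in control cells, -0.0014 with RLE, -0.014 in 1 fit of 18 samples and -0.0017 with DESeq2, GGCT for the same in NRF2 ΔC cells, -0.0051 with RLE, -0.012 without a filter, -0.0059 with a replicate block, -0.019 in 1 fit of 18 samples and -0.0032 with DESeq2, and OPLAH in the NACET interaction, 0.016 with a replicate block and 0.0027 with a block within each line. With each library left out in turn, the log2 values ran as follows. GSS in control cells ran from -0.051 to 0.10 for NACET and from -0.096 to 0.090 for H2O2, from -0.080 to 0.14 with NACET in NRF2 ΔC cells, from -0.11 to 0.0068 and -0.14 to 0.067 between the lines untreated and with NACET, from -0.061 to 0.13 for NACET against H2O2 in control cells, and from -0.12 to 0.099 in the NACET interaction. OPLAH ran from -0.096 to 0.42 with H2O2 in NRF2 ΔC cells and from -0.26 to 0.19 in the NACET interaction. CHAC1 ran from -0.49 to 0.60 and -0.60 to 0.41 between the lines untreated and with NACET, and from -0.23 to 0.90 in the NACET interaction. SLC3A2 ran from -0.11 to 0.17 and GGCT from -0.017 to 0.26 between the lines with NACET. For NACET against H2O2, SLC7A11 ran from -0.085 to 0.34 and GGCT from -0.079 to 0.11 in control cells, and GGCT from -0.12 to 0.17 in NRF2 ΔC cells. In the H2O2 interaction SLC7A11 ran from -0.22 to 0.25 and GGT1 from -0.45 to 0.72. GGT1, one of the 21 results, passed the filter only in comparisons that include H2O2-treated NRF2 ΔC cells, where it was highest. With so few counts elsewhere, its interaction cannot be judged, and no conclusion is drawn from its range. NFE2L2 ran from -0.0010 to 0.033 between untreated lines. The ratio of SLC7A11 to SLC3A2 with NACET in NRF2 ΔC cells ran from -0.16 to 0.30. Depth limits GGT1, at 2 to 21 counts per library, untreated CHAC1, and OPLAH in NRF2 ΔC cells, at 13 to 54 counts.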
